A study of Mus musculus with 12 samples.

Results

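The liver transcripts described here encode 8 transcription factors that establish or maintain the hepatocyte state: Cebpa, Cebpb, Cebpd, Foxa1, Foxa2, Foxa3, Onecut1 and Prox1. They were taken by gene symbol from the count data of 12 mouse livers, in which all 8 were found among 38926 symbols, and all 8 had enough reads to be among the 14488 genes tested. Poly(A) RNA was sequenced from 3 wild-type and 3 Rev-erbα-/- livers (labelled Rev KO, called knockouts in what follows) at ZT8, and from 3 livers of each genotype at ZT20, with 1 liver per library. ZT, zeitgeber time, counts hours from lights on, so that ZT8 lies in the day and ZT20 in the night of the 12:12 light and dark cycle. The animals were 12 weeks old males on a mixed 129Ola and C57BL6 background from heterozygous breeding, fed without restriction, and received no drug. The Rev-erbα-/- mice lack the nuclear receptor REV-ERBα, encoded by Nr1d1, in the whole body, so liver cells and the tissues that send signals to the liver are affected alike. REV-ERBα is a repressor of the circadian clock, and the samples were collected to compare liver transcripts at a time when REV-ERBα is abundant with a time when it is scarce.

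The factors fall into 4 families. C/EBPα, C/EBPβ and C/EBPδ are basic leucine zipper proteins that bind the same DNA motif as dimers: C/EBPα drives metabolic genes of the quiescent adult hepatocyte, whereas C/EBPβ and C/EBPδ are induced in the acute-phase response and in regeneration. FOXA1, FOXA2 and FOXA3 are forkhead proteins that can bind DNA in compact chromatin and open liver enhancers to other factors. ONECUT1, also named HNF6, is a cut-homeodomain protein of hepatocyte and bile duct development, and its hepatic RNA is known to respond to growth hormone. PROX1 is a homeodomain protein of early hepatoblasts that acts in the adult liver mainly as a corepressor of HNF4α and related nuclear receptors.

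Between 17641809 and 26060192 reads were counted on genes per library, and the members held between 59 and 12694 reads each, well above the 3 counts (0.115 to 0.170 CPM, counts scaled to the library size) taken as the smallest level a library can show. Nr1d1 reads remained in the knockout livers at ZT8, with 63.0 to 80.5 CPM against 75.3 to 129 CPM in wild-type, so that this symbol does not check the genotype labels. Arntl, a target repressed by REV-ERBα, was at 22.7 to 25.7 CPM in knockouts and at 0.448 to 0.795 CPM in wild-type at ZT8, and so separated the genotypes there. At ZT20 Arntl was at 41.1 to 45.1 CPM in knockouts and at 43.0 to 45.2 CPM in wild-type. Nr1d1 was then at 2.09 to 3.57 CPM and 1.86 to 2.28 CPM, so that neither gene checks the genotype labels at ZT20. All 10 hepatocyte markers were detected in every library (summed 66863 to 118066 CPM), and the 6 pancreas acinar markers summed to at most 0.208 CPM. In a whole liver, fewer hepatocytes and less RNA per hepatocyte cannot be told apart. The wild-type livers 2 and 3 at ZT8 stood apart from all others. Serum amyloid Saa1 reached 4969 and 6486 CPM there, against 21.2 to 96.7 CPM in the other 10 livers. Calls of members and gene lists that were lost without these animals are given with and without them.

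Levels of different genes were compared as CPM per kilobase of annotated exon, averaged over the 12 livers. Cebpa was by far the most abundant member, at 149 CPM per kb, above every other member in 12 of 12 livers. Cebpb followed at 33.0, Prox1 at 24.6 and Foxa3 at 23.6 CPM per kb. These neighbours were not separated in every animal, since Cebpb was above Prox1 in 9 and Prox1 above Foxa3 in 8 of the 12 livers. Foxa2 came next with 13.0 and Foxa1 with 7.06 CPM per kb, and Foxa2 was above Foxa1 in 12 of 12 livers. Onecut1 stood at 5.62 CPM per kb and was below Foxa1 in 8 of 12 livers. Cebpd was the least abundant member, at 1.21 CPM per kb.

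**Figure D1:**
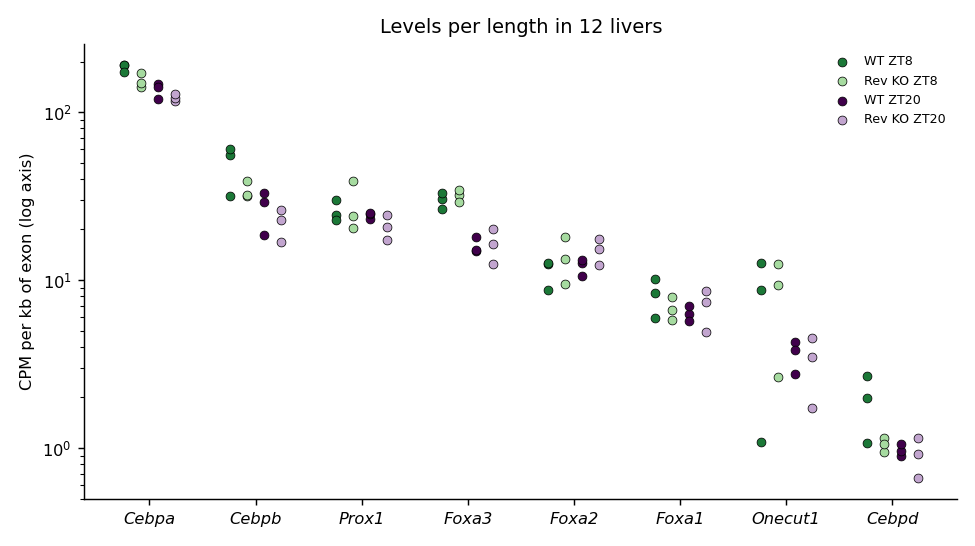
CPM per kilobase of exon (log axis) of the 8 transcription factors, ordered by their mean over 12 livers, with 1 point per liver and 4 columns of points per gene for the 4 groups (WT, wild-type; Rev KO, knockout). Cebpa, at a mean of 149, lies above all other members in every liver, and Cebpd, at 1.21, lies lowest.

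Some of these genes share exon bases with a neighbour, and reads were counted without regard to strand. In Onecut1 (chromosome 9, 74861921 to 74891781, plus strand, mm10), 2171 of 4113 exon bases (52.8%) also belong to the long noncoding RNA gene Gm20649 on the same strand, which was listed with 0 reads in every library. Counting per base that no other gene shares gave Onecut1 11.9 CPM per kb, above rather than below the mean of Foxa1. In Cebpb (chromosome 2, 167688915 to 167690418), 20.7% of the exon bases are opposite Tmem189, and in Cebpd (chromosome 16, 15887286 to 15891031), 15.0% are opposite Spidr, which had 91 to 186 reads per library. The intronless Cebpa gene (chromosome 7, 35119293 to 35121928) shares 1.93% and Prox1 (chromosome 1, 190118035 to 190170714) shares 1.59% with antisense transcripts. No exon base is shared in Foxa1 (chromosome 12, 57540628 to 57546916), Foxa2 (chromosome 2, 148042877 to 148046969) or Foxa3 (chromosome 7, 19013284 to 19023538).

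Foxa3 and Cebpa had lower RNA levels at night in both genotypes. In wild-type livers Foxa3 was at 53.9, 62.2 and 67.4 CPM at ZT8 and at 36.5, 30.2 and 30.9 CPM at ZT20. In knockout livers it was at 65.5, 59.7 and 70.3 CPM at ZT8 and at 40.7, 33.3 and 25.4 CPM at ZT20. Day and night did not overlap in either genotype, and Foxa3 at night was at about the same fraction of its day level in both, 0.532 in wild-type (95% confidence interval 0.426 to 0.664) and 0.509 in knockouts (0.408 to 0.636). The change passed edgeR's quasi-likelihood test with Benjamini-Hochberg adjustment over all genes in wild-type (log2 fold change -0.91, SE 0.15, adjusted p = 0.000646) and in knockouts (log2 fold change -0.97, SE 0.15, adjusted p = 0.000843). Neither the tool, the scaling, the filter, nor leaving out any single liver removed either call.

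Cebpa was at 505, 503 and 455 CPM in wild-type and at 373, 393 and 453 CPM in knockout livers at ZT8. At ZT20 it was at 389, 373 and 314 CPM in wild-type and at 309, 318 and 337 CPM in knockouts. Every night value was below every day value of the same genotype. Day and night did not overlap, in either direction, for 42.3% of all genes in wild-type and 35.0% in knockouts. Cebpa fell by 0.44 on the log2 scale in wild-type (SE 0.10, edgeR adjusted p = 0.00392) and by 0.34 in knockouts (SE 0.10, edgeR adjusted p = 0.0296). The wild-type call stood in all 19 alternatives. The knockout call was lost when any of 4 single livers was left out (livers 2 and 3 at ZT8, livers 1 and 2 at ZT20), with adjusted p from 0.0613 to 0.117.

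In wild-type, 3 of the 8 members changed between day and night, and all 3 were lower at night: Foxa3, Cebpa and Cebpd. Over all tested genes, 27.7% changed in wild-type and 13.9% were lower at night. In knockout livers, 2 of the 8 members were lower at night (Foxa3 and Cebpa) and none was higher, against 17.5% of all genes that changed and 8.67% that were lower. In both genotypes, 4.78% of all genes were lower at night. The median log2 fold change of the 8 members was -0.65 in wild-type and -0.38 in knockouts, and that of all genes was -0.00021 and 0.0063. The wild-type median depends on the 2 livers with high Saa1. Without them, which leaves 1 wild-type liver at ZT8, Foxa3, Prox1, Cebpb and Cebpd were at -0.73, -0.31, -0.24 and -0.15. Foxa1, Foxa2 and Onecut1 were then higher at night, at 0.087, 0.47 and 1.73. Cebpa stayed between -0.50 and -0.37 in every alternative. No member's day to night change was shown to differ between the genotypes (edgeR interaction adjusted p of 0.326 or more for each of the 8).

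**Figure D2:**
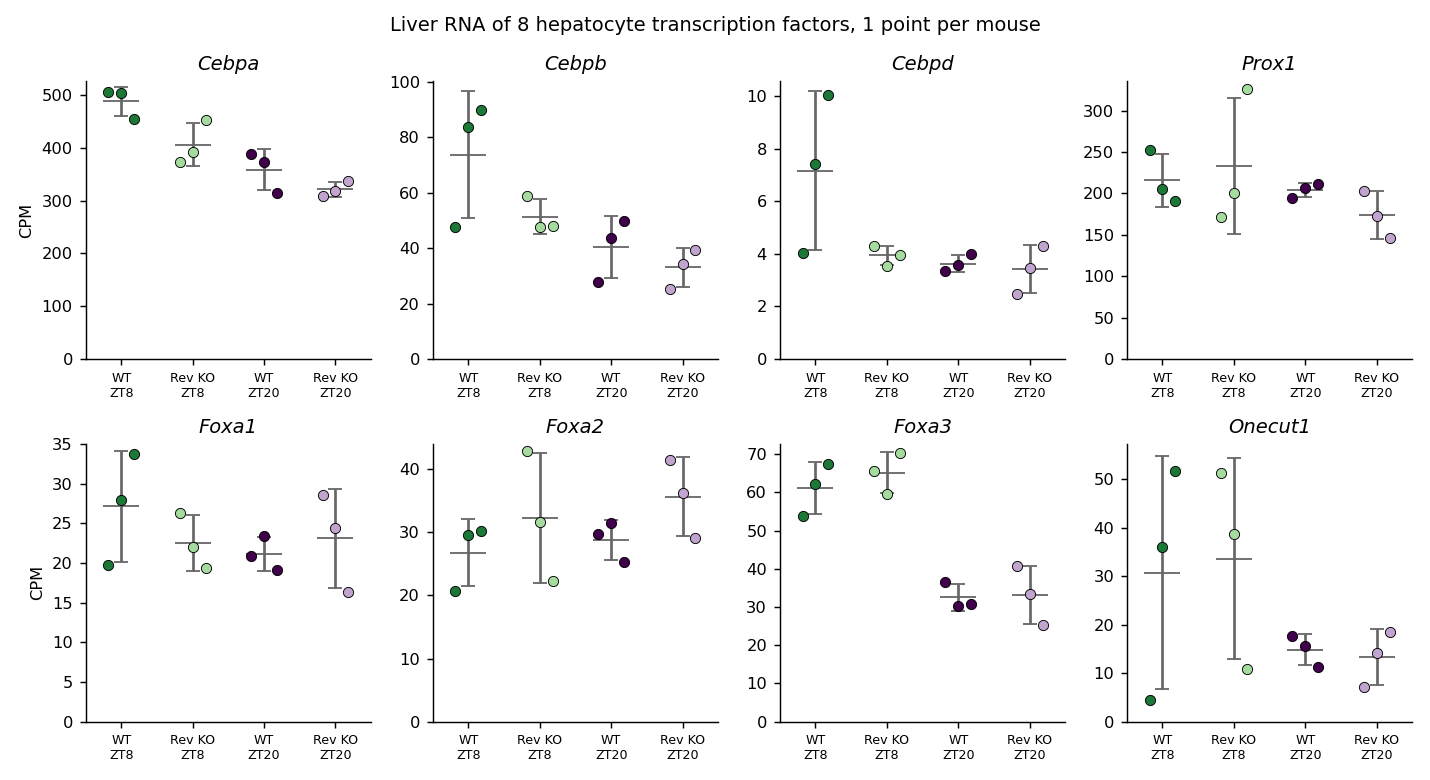
CPM of each of the 8 transcription factors in each liver (points), with the mean and SD of the 3 mice of a group (grey bars), for wild-type (WT) and knockout (Rev KO) at ZT8 and ZT20. Foxa3 and Cebpa have no overlap between day and night within a genotype, and Onecut1 runs from 4.45 to 51.7 CPM within the wild-type group at ZT8.

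The 5' flanks of both genes are shown because they are the members that were lower at night in both genotypes. The 250 bases before the RefSeq start site (GRCm38.p6, 5' to 3' on the gene's strand) are Cebpa chr7:35119043-35119292, plus strand, and Foxa3 chr7:19023540-19023789, minus strand. Capitals mark TATAA, searched in the last 50 bases.
Cebpa: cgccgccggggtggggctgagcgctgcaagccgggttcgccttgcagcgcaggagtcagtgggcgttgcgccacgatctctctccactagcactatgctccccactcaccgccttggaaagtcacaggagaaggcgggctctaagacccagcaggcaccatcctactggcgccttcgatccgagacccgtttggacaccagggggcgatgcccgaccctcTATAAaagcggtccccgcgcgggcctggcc
Foxa3: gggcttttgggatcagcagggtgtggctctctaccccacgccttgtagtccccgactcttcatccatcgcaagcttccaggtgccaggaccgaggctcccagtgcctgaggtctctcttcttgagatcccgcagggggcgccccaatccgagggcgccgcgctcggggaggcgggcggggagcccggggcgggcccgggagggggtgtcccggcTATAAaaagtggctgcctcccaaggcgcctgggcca
TATAA was present in the last 50 bases of 4.93% of 32851 mouse flanks, and among the members with a RefSeq flank (7 of 8, 10 windows) only in these; it was looked for after the sequences had been seen. None of the 10 windows held, on either strand, the REV-ERB and ROR response element RORE (0.332% of all flanks), the shorter element AGGTCA (14.0%), the D-box letters TTATGTAA (0.819%) or TTACGTAA (0.113%), the C/EBP palindrome TTGCGCAA (0.164%), TGACGTCA (1.55%) or the glucocorticoid response element (0.00913%). The absence of these letters concerns only the windows searched.

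The genes whose pattern over the 12 livers was most like that of Foxa3 were Ahsg (Pearson r = 0.97), Gtf3c4 and Mtmr10 (both r = 0.97). Ahsg encodes the plasma protein fetuin-A, and its own day to night difference is in the list of hepatocyte products below. The genes most like Cebpa were Lipg, which encodes endothelial lipase (r = 0.97), Sbk1 and Slc35g1 (both r = 0.96). These values describe 12 libraries that share their groups, and they carry no test.

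Cebpd was also lower at night in wild-type and Cebpb did not pass the threshold, and both differences depended on the livers with high Saa1. Cebpb was at 47.5, 83.9 and 90.1 CPM in wild-type at ZT8 and at 27.9, 43.6 and 49.8 CPM at ZT20. The first day animal thus lay within the range of the night animals, and the difference did not pass the test (log2 fold change -0.87, SE 0.29, edgeR adjusted p = 0.0554). In knockout livers Cebpb was at 58.8, 47.6 and 48.0 CPM at ZT8 and at 25.3, 34.5 and 39.4 CPM at ZT20. There the day and night values did not overlap, and the log2 fold change was -0.64 (SE 0.29, edgeR adjusted p = 0.181).

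Cebpd was at 4.02, 7.42 and 10.1 CPM in wild-type at ZT8, and at 3.35, 3.58 and 3.98 CPM at ZT20. In knockout livers it was at 4.31, 3.55 and 3.96 CPM at ZT8 and at 2.47, 3.47 and 4.31 CPM at ZT20. Outside the 2 wild-type day livers with high Saa1, its level thus stayed between 2.47 and 4.31 CPM in all 10 livers. Cebpd fell by 0.97 on the log2 scale from day to night in wild-type (SE 0.28, edgeR adjusted p = 0.0201). Without these 2 livers, which leaves 1 wild-type liver at ZT8, the difference was -0.15 (edgeR adjusted p = 0.790), and that of Cebpb was -0.24 (edgeR adjusted p = 0.733).

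The livers with the highest Cebpb and Cebpd were those in which acute-phase RNAs were high. In wild-type at ZT8, Saa1 was at 60.7, 4969 and 6486 CPM, Lcn2 at 3.30, 307 and 393 CPM, and Socs3 at 7.95, 23.3 and 29.8 CPM, in the same order of animals as Cebpb and Cebpd. Saa1 and Lcn2 encode secreted proteins of the acute-phase response, and Socs3 a feedback inhibitor of cytokine signalling. The summed level of the 12 acute-phase genes reached 35391 CPM in this group against 9298 to 11828 CPM in the other 3 groups. In those 3 groups Saa1 stayed between 21.2 and 96.7 CPM. Over their 9 livers the deviations of Cebpb from the group means had a Pearson r of -0.79 with those of Saa1. Those of Cebpd had an r of -0.56. Since none of these livers had high Saa1, they cannot show whether the relation in wild-type at ZT8 holds elsewhere. Kupffer cell and macrophage markers summed to 352 to 556 CPM in wild-type at ZT8 and to 303 to 420 CPM in the other groups, and neutrophil markers to 1.2 to 1.9 CPM in wild-type at ZT8. The part of these cells or RNAs in the values of Cebpb and Cebpd was not tested.

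**Figure D3:**
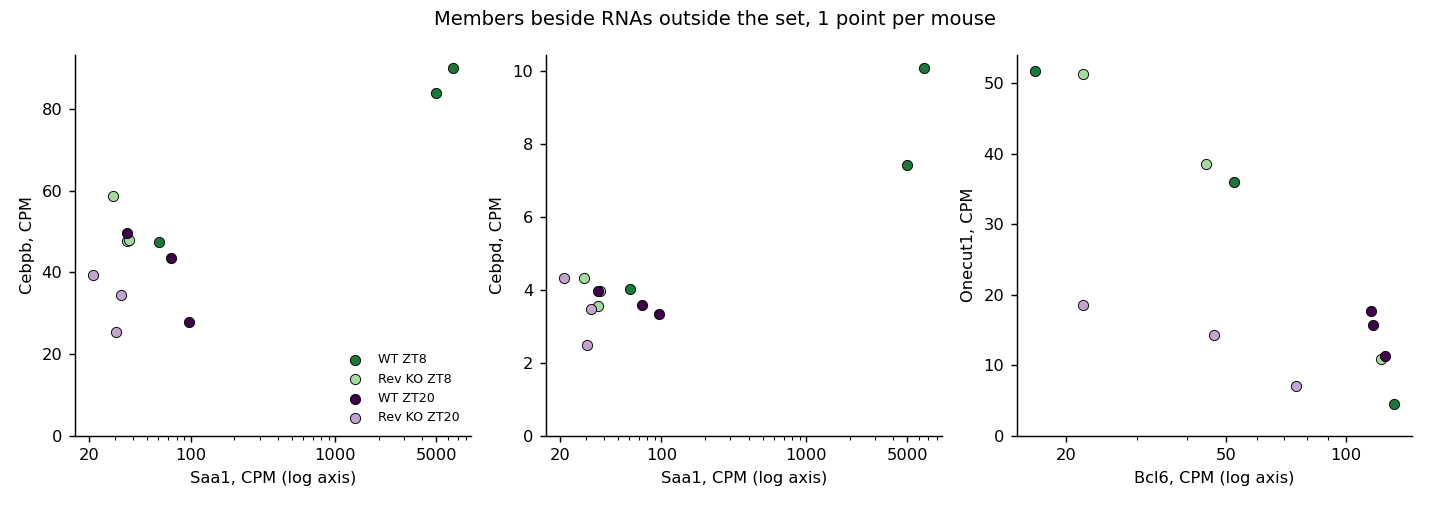
CPM of Cebpb and Cebpd against Saa1, and of Onecut1 against Bcl6 (horizontal log axes), with 1 point per liver coloured by group (WT, wild-type; Rev KO, knockout). The 2 wild-type ZT8 livers with 4969 and 6486 CPM of Saa1 have the highest Cebpb and Cebpd, and within each group Onecut1 is higher where Bcl6 is lower.

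No member passed the test for an effect of genotype at either time. At ZT8, 0 of 8 members passed with edgeR, against 8.45% of all genes, whereas 2 had an unadjusted p under 0.05 (Cebpa and Cebpd) and DESeq2 called 1 (Cebpd). At ZT20, 0 of 8 passed with edgeR, against 3.63% of all genes, 0 had an unadjusted p under 0.05, and DESeq2 called 0. The genotype effect differed between the times for 0 of 8 members by edgeR's interaction term, against 5.88% of all genes, with 0 at an unadjusted p under 0.05 and 0 by DESeq2.

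The largest difference at ZT8 relative to its error was in Cebpd, which was at 3.94 ± 0.378 CPM (SD, n = 3 mice) in knockouts and at 7.17 ± 3.03 CPM in wild-type. The log2 fold change was -0.85 (SE 0.28, edgeR adjusted p = 0.0810). It depended on the wild-type animals: without the first, the difference was -1.15 and passed the test (edgeR adjusted p = 0.00178), as did the interaction (-1.06, edgeR adjusted p = 0.0290), whereas without the 2 livers with high Saa1 it was -0.03 (edgeR adjusted p = 0.980).

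Cebpa was the only member whose genotypes did not overlap at ZT8, which also held for 25.6% of all genes. It was 406 ± 41.4 CPM in knockouts and 488 ± 28.3 CPM in wild-type, a log2 fold change of -0.26 (95% confidence interval -0.48 to -0.05, edgeR adjusted p = 0.120). No alternative brought it past the threshold, with adjusted p from 0.0558 to 0.321. For Foxa3, the 95% interval of the genotype difference was -0.22 to 0.41 on the log2 scale at ZT8 and -0.29 to 0.35 at ZT20, so that genotype effects above 1.33-fold at either time lie outside it. For Onecut1 the interval at ZT8 was -1.73 to 2.00, so that a difference of several fold in either direction lies inside it. With 3 mice against 3, the exact permutation test of 1 gene cannot give a two-sided p below 0.1, and this value was reached at ZT8 by Cebpa alone.

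**Figure D4:**
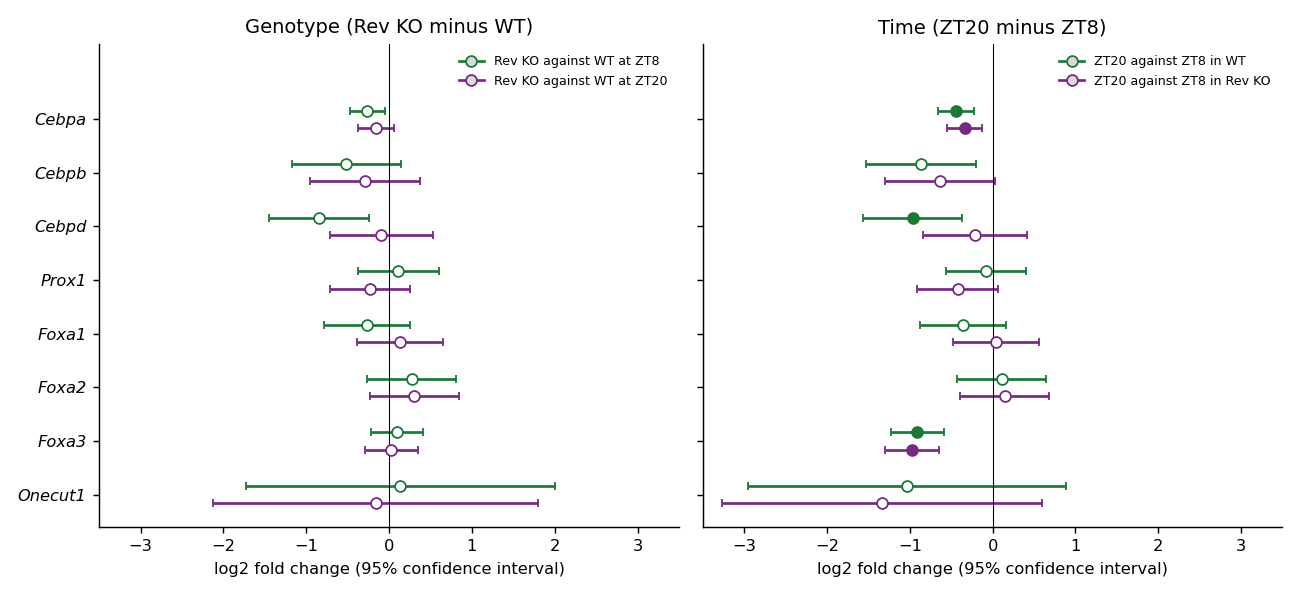
Log2 fold changes of the 8 transcription factors with 95% confidence intervals from the edgeR fit, for genotype (knockout minus wild-type, left) and time (ZT20 minus ZT8, right). Filled points passed the threshold of 0.05 on the adjusted p: Cebpa, Cebpd and Foxa3 in wild-type and Cebpa and Foxa3 in knockouts for time, and none for genotype.

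Foxa1 and Foxa2 passed no test of genotype or time. Foxa1 was at 19.8, 27.9 and 33.7 CPM in wild-type and at 26.3, 22.0 and 19.3 CPM in knockouts at ZT8, and at 20.9, 23.4 and 19.1 CPM and 28.5, 24.5 and 16.3 CPM at ZT20. Foxa2 was at 20.6, 29.5 and 30.1 CPM in wild-type and at 42.9, 31.5 and 22.3 CPM in knockouts at ZT8, and at 29.8, 31.4 and 25.2 CPM and 41.5, 36.3 and 29.0 CPM at ZT20. The groups compared overlapped for both genes. Foxa2 was 1.21-fold higher in knockouts at ZT8 and 1.24-fold higher at ZT20, and neither difference passed the test (edgeR adjusted p = 0.551 and 0.640).

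The make-up of FOXA RNA by day and night is given as shares, without a test. Per kilobase, Foxa3 made up 61.0% ± 2.9 (SD, n = 3 mice) of the summed Foxa1, Foxa2 and Foxa3 level in wild-type at ZT8 and 46.4% ± 3.6 at ZT20. In knockouts its share was 61.4% ± 7.2 at ZT8 and 42.5% ± 0.8 at ZT20. The share of Foxa2 was 22.7% and 25.7% by day, and 35.2% and 39.5% at night, in wild-type and knockouts respectively. Among the C/EBP members, Cebpa made up 78.5% ± 6.2 in wild-type and 81.3% ± 3.1 in knockouts at ZT8, and 82.9% ± 5.3 and 84.3% ± 2.4 at ZT20.

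By day, Onecut1 varied more between mice of the same group than almost any other gene. In wild-type at ZT8 it was at 4.45, 36.0 and 51.7 CPM, a range of 11.6-fold, and in knockouts at ZT8 at 51.3, 38.6 and 10.8 CPM. At ZT20 it was at 17.7, 15.7 and 11.3 CPM in wild-type and at 7.09, 14.3 and 18.5 CPM in knockouts. The wild-type day animals thus lay on either side of all 6 night animals. Its coefficient of variation at ZT8 was 78.3% in wild-type and 61.7% in knockouts, larger than that of 99.0% and 98.0% of the tested genes, whose medians were 9.96% and 10.5%. The group means were 30.7 and 33.6 CPM at ZT8 and 14.9 and 13.3 CPM at ZT20 in wild-type and knockouts, and no contrast of Onecut1 passed the test (edgeR adjusted p of 0.332 or more). Without the 2 livers with high Saa1, which leaves the wild-type day liver with the lowest Onecut1, the log2 fold change for genotype at ZT8 went from 0.14 to 2.90 (edgeR adjusted p = 0.311) and the interaction from 0.30 to 3.06 (edgeR adjusted p = 0.324).

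Prox1 was at 252, 205 and 191 CPM in wild-type and at 172, 201 and 327 CPM in knockouts at ZT8, and at 195, 207 and 211 CPM and 203, 173 and 146 CPM at ZT20. No contrast of Prox1 passed the test (edgeR adjusted p of 0.228 or more). Within each of the 4 groups, the mouse with the highest Onecut1 had the lowest Prox1, and the mouse with the lowest Onecut1 had the highest Prox1. Such an opposite order in all 4 groups was shared with Onecut1 by 0.29% of the other tested genes. The deviations of the 2 genes from their group means had a Pearson r of -0.83 over 12 livers (exact permutation of mice within groups, two-sided p = 0.000772). With the mice ranked within each group, Spearman rho was -1.0 (exact permutation p = 0.00154), which restates the opposite order in all 4 groups. Without the 2 livers with the most extreme Onecut1 the Pearson r was -0.81, and over the 9 livers of the groups other than wild-type at ZT8 it was -0.98.

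The 28 pairs among the 8 members were compared in this way, after the values had been seen, and 3 of them kept 1 order in all 4 groups. Besides Onecut1 with Prox1, these were Cebpb with Cebpd (Pearson r = 0.86) and Foxa1 with Foxa2 (Pearson r = 0.86). Each of these had the same order of mice in all 4 groups, which is a Spearman rho of 1.0 for ranks within groups. For each of the 3 pairs the exact permutation p was 0.000772 for r and 0.00154 for rho (Benjamini-Hochberg adjusted over the 28 pairs, 0.0072 and 0.0144). Before adjustment these are the smallest values that the 1296 arrangements allow. The r without the 2 farthest livers was 0.87 for Cebpb with Cebpd and 0.84 for Foxa1 with Foxa2, and over the 3 groups other than wild-type at ZT8 it was 0.79 and 0.84. Among all tested genes, 0.269% had the order of Cebpb and 0.255% the order of Foxa1 in all 4 groups. An r at least as far from 0 as in the pair was more frequent. It was found for 1.55% of tested genes with Onecut1, 1.12% with Cebpb and 1.09% with Foxa1. The next pair, Cebpd with Onecut1, had r = 0.79 (exact permutation p = 0.0432, adjusted 0.248).

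**Figure D5:**
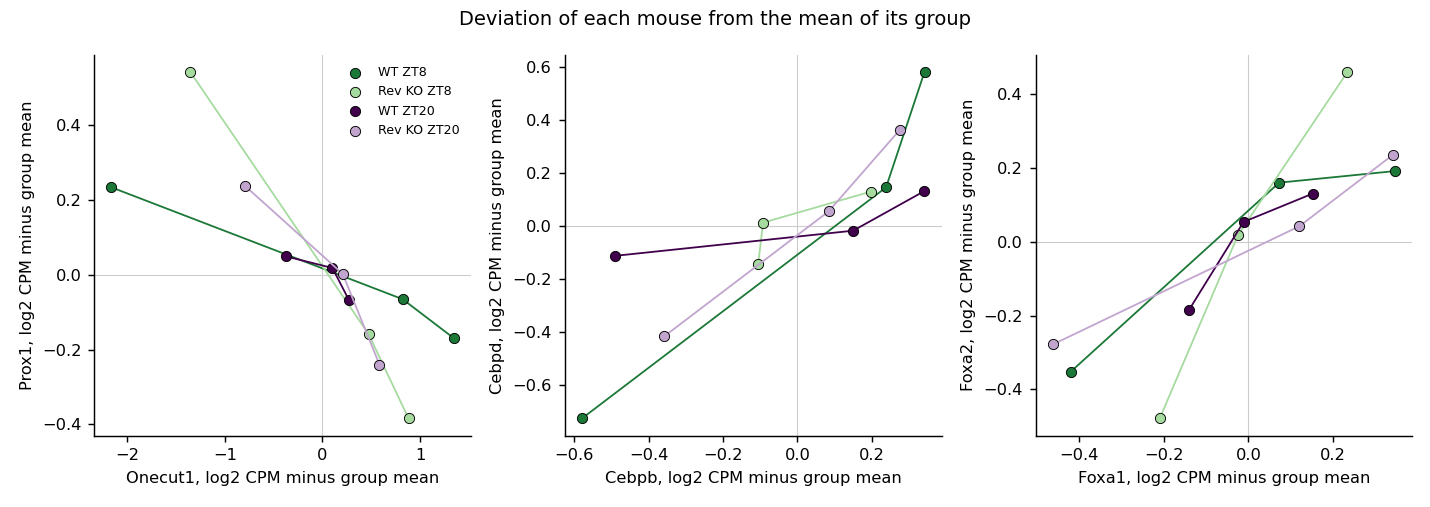
Log2 CPM minus the group mean for 3 pairs of transcription factors (Onecut1 and Prox1, Cebpb and Cebpd, Foxa1 and Foxa2), with 1 point per liver and a line through the 3 mice of each group (WT, wild-type; Rev KO, knockout). All 4 lines fall in the first pair (r = -0.83) and rise in the other two (both r = 0.86).

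The 5' flanks of Onecut1 and Prox1 are given because these genes varied in opposite order between mice. They are the 250 bases before the RefSeq start sites (GRCm38.p6), chr9:74861671-74861920 on the plus strand for Onecut1 and chr1:190170828-190171077 on the minus strand for the upstream of the Prox1 starts. Capitals mark the E-box CACGTG, the motif bound by CLOCK and BMAL1 among other factors.
Onecut1: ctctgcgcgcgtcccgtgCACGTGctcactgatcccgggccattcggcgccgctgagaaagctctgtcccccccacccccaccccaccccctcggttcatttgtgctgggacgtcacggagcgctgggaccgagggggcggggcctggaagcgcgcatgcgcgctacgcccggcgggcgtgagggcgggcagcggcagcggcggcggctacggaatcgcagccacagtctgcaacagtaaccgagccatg
Prox1: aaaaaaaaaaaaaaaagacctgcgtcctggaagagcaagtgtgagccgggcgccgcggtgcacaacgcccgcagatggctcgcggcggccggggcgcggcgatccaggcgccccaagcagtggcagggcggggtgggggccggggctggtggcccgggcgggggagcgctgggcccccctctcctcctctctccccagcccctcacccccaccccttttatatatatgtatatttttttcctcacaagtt
CACGTG lies 232 to 227 bases before the Onecut1 start and was found in 6.02% of all flanks, and in no other window of the members. The only other match was the forkhead letters TGTTTAC, 141 to 135 bases before the Foxa1 start on the opposite strand (3.17% of all flanks).

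Other RNAs that respond to growth hormone through STAT5 were set beside Onecut1 after its spread and their own values had been seen. Cish, a feedback inhibitor that growth hormone induces, was at 3.42, 37.3 and 53.3 CPM in wild-type at ZT8, the same order of animals as Onecut1, and had that order also in knockouts at ZT8 and wild-type at ZT20. In knockouts at ZT20 it was at 16.9, 13.0 and 5.60 CPM, the opposite order. Socs2, another feedback inhibitor that growth hormone induces, followed Onecut1 in fewer groups. It was at 4.77, 33.8 and 57.9 CPM in wild-type and at 35.4, 29.0 and 29.5 CPM in knockouts at ZT8, and at 7.95, 9.46 and 10.6 CPM and 4.49, 6.39 and 6.49 CPM at ZT20. Its order of animals was that of Onecut1 in 2 of 4 groups and the opposite in wild-type at ZT20. Over 12 livers its r with Onecut1 was 0.83, and over the 9 livers outside wild-type at ZT8 it was 0.44 (Cish, 0.81 and 0.39). Bcl6, a repressor that growth hormone lowers, was at 132, 52.3 and 16.7 CPM in wild-type and at 22.0, 44.5 and 122 CPM in knockouts at ZT8. At ZT20 it was at 115, 117 and 125 CPM and at 74.8, 46.6 and 22.0 CPM. Bcl6 was in the opposite order to Onecut1 in 4 of 4 groups (r = -0.91 over 12 livers), as were 0.29% of the other tested genes. Prox1 was itself opposite to Onecut1 in all 4 groups. The order of Bcl6 was therefore bound to be that of Prox1 in 4 of 4 groups (r = 0.88), which is not a separate result. The genes most like Onecut1 over all 12 livers were Ikzf4 (r = 0.91), Zyg11a and Slc25a30 (both r = 0.90), and those most like Prox1 were Cdan1 (r = 0.91), Riok3 (r = 0.88) and Gm13414 (r = 0.86). The part of growth hormone in these values was not tested.

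For the remaining members, the most alike genes were Ccrn4l (r = 0.97), Pdzd2 and Mapkapk3 (both r = 0.96) for Cebpb, and Gm17491, Csf2rb2 (both r = 0.96) and Zfp259 (r = 0.95) for Cebpd. They were Ccr3, Mllt10 and A730017L22Rik (each r = 0.91) for Foxa1, and Ythdc2, Mtcp1 (both r = 0.92) and Apobec1 (r = 0.88) for Foxa2.

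Of 20 other liver-enriched transcription factors, 18 had enough reads for the test. At ZT8, 2 of the 18 were higher in knockouts and 0 lower with edgeR, against 8.45% of all genes called. With edgeR 8 of the 18 had an unadjusted p under 0.05, and DESeq2 called 4. The median log2 fold change of the 18 was -0.05 (all genes, 0.0018). Gata4, a zinc finger factor of liver development, was at 26.5 ± 1.14 CPM in knockouts and 19.7 ± 2.88 CPM in wild-type (log2 fold change 0.42, edgeR adjusted p = 0.0118). Hnf4a, the nuclear receptor that PROX1 binds, was at 1011 ± 118 CPM and 794 ± 27.2 CPM (log2 fold change 0.35, edgeR adjusted p = 0.0366). The effects on Gata4 and Hnf4a differed from those at ZT20 by the interaction term (edgeR adjusted p = 0.0380 and 0.0415), and at ZT20 0 of 18 passed with edgeR, 4 had an unadjusted p under 0.05 and DESeq2 called 0. Without the 2 livers with high Saa1, 0 of the 18 passed at ZT8 or in the interaction with edgeR, 4 and 3 had an unadjusted p under 0.05, and Gata4 and Hnf4a were at 0.30 and 0.40 at ZT8 (edgeR adjusted p = 0.219 and 0.182). From day to night, 4 of the 18 were higher and 5 lower in wild-type (27.7% of all genes called), and 2 higher and 3 lower in knockouts (17.5%). Among those that passed were Gata4 (log2 fold change 0.69) and Rxra (-0.41), the partner of many nuclear receptors, in wild-type, and Hnf4a (-0.45), Onecut2 (-0.62), the paralogue of Onecut1, and Klf15 (-0.34) in knockouts. With these livers left out, 4 of the 18 passed in wild-type, among them Gata4 (0.56), whereas Rxra (-0.31, edgeR adjusted p = 0.103) did not.

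The other C/EBP family genes were Cebpe, Cebpg and Ddit3. Ddit3, which encodes the stress-induced dimer partner CHOP, was at 8.82 ± 1.10 CPM in knockouts and 5.45 ± 0.288 CPM in wild-type at ZT8 (log2 fold change 0.70, edgeR adjusted p = 0.00433), with an interaction of 0.67 (edgeR adjusted p = 0.0468). Leaving out the 2 livers with high Saa1, Ddit3 was at 0.78 for genotype at ZT8 (edgeR adjusted p = 0.0603) and 0.75 in the interaction (edgeR adjusted p = 0.132). Cebpe, known from granulocytes, was at 89, 106 and 162 counts in wild-type and at 0 counts in all 3 knockout livers at ZT20. Set against 3 counts over the group, it was at least 128-fold lower there than in wild-type (edgeR adjusted p = 0.0261). At ZT8 it was at 95, 35 and 3 counts in wild-type and at 51, 56 and 70 counts in knockouts, at least 75.3-fold above the level of the knockout livers at ZT20 (edgeR adjusted p = 0.0164). At ZT20 the 6 neutrophil markers summed to 1.63, 2.39 and 8.63 CPM in wild-type, the same order as Cebpe. In knockouts at ZT20 they summed to 0.7 to 1.2 CPM, and Ly6g was at 0 in every library. For genotype at ZT20 DESeq2 called 2 of the 2 tested, edgeR 0 with 2 at an unadjusted p under 0.05. At ZT8 the sums were 1.15, 1.79 and 1.88 CPM in wild-type, the opposite order to Cebpe. In knockouts at ZT8 they were 0.675, 2.00 and 2.64 CPM, the same order as Cebpe. The part of neutrophils in the Cebpe counts was not tested. Cebpg, a widely expressed partner of the family, was at 71.8 to 94.8 CPM and passed no contrast with edgeR.

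Of 25 hepatocyte product genes, for plasma proteins and metabolic enzymes, 0 passed for genotype at ZT8 with edgeR, but 9 had an unadjusted p under 0.05 and DESeq2 called 8, so that this count depends on the tool. At ZT20, 0 passed with edgeR, 0 had an unadjusted p under 0.05 and DESeq2 called 0. In the interaction 0 passed with edgeR, 4 had an unadjusted p under 0.05 and DESeq2 called 0. From day to night, 5 of the 25 were higher and 4 lower in wild-type (27.7% of all genes called), and 1 was higher and 3 lower in knockouts (17.5%). Albumin (Alb) was higher at night in wild-type (log2 fold change 0.82), as were Cps1 (0.83), the entry enzyme of the urea cycle, and Tat (0.53), a tyrosine aminotransferase. Without the 2 livers with high Saa1, 1 of the 25 passed in wild-type, Tat (0.61), and Alb (0.47, edgeR adjusted p = 0.228) and Cps1 (0.74, edgeR adjusted p = 0.0553) did not. In knockouts, Tat was higher (0.82) and Ahsg (-0.45), a plasma glycoprotein, was among those lower at night. Of the 12 acute-phase genes, 7 were lower in knockouts than in wild-type at ZT8 (8.45% of all genes called). In wild-type, 8 were lower at night than by day (27.7% of all genes called). Both comparisons are against the group that holds the 2 livers with high Saa1. Without those livers 0 of the 12 passed for genotype at ZT8 with edgeR, with 3 at an unadjusted p under 0.05, and the median log2 fold change of the list went from -1.65 to -0.10. For time in wild-type 1 then passed, in the higher direction. In the interaction 0 of the 12 passed with edgeR, but 9 had an unadjusted p under 0.05 and DESeq2 called 8, so that this count too depends on the tool. Without those livers 0 passed in the interaction with edgeR and 2 had an unadjusted p under 0.05. At ZT20 0 of the 12 passed for genotype with edgeR, 0 had an unadjusted p under 0.05 and DESeq2 called 0. Of 12 glucocorticoid-induced genes, 2 were higher in knockouts at ZT8 (the cell cycle inhibitor Cdkn1a, 34.4 against 2.48 CPM, and Tsc22d3, 176 against 120 CPM) and 1 was lower at ZT20 (Tsc22d3, 169 against 226 CPM). By edgeR 8.45% and 3.63% of all tested genes were called in these contrasts, and DESeq2 called 5 of the 12 at ZT8 and 2 at ZT20. From day to night, 3 of the 12 were higher and 5 lower in wild-type (27.7% of all genes called), and 1 was higher and 3 lower in knockouts (17.5%). With the livers of high Saa1 left out, 1 passed at ZT8 (Cdkn1a, log2 fold change 3.60, edgeR adjusted p = 0.00325), and 3 passed for time in wild-type, all of them higher at night.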

How the data were processed

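Liver RNA of 12 mice was analysed, in 4 groups of 3 taken from the sample labels. The authors made poly(A) libraries for an Illumina HiSeq instrument, aligned reads to mm10 by TopHat and assigned those with 1 alignment to symbols by HTSeq-count (union, alignment quality of at least 10, strand ignored). The annotation release is not given in the sources used here. They deposited raw counts for each library, 38926 symbols and 5 summary lines, without normalization. The summary lines were left out. Reads without a gene came to 9.66% to 11.5% of the counted reads, and reads on more than 1 gene to 3.53% to 4.14%.

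Low counts were removed with filterByExpr, libraries were scaled with TMM, and edgeR 4.0.16 (R 4.3.3) was fitted as a robust quasi-likelihood model with 4 group means over 14488 genes. The contrasts were genotype at each time, time in each genotype, and the interaction, with Benjamini-Hochberg adjustment over all genes and a threshold of 0.05. CPM were computed with edgeR from the TMM-scaled library sizes. In simulated data for the ZT8 contrast, edgeR recovered 177 of 200 genes changed 3-fold among 14282 genes and made 8 false calls, and DESeq2 recovered 181 and made 23. All differences of the members in the main fit were below 3-fold, and the recovery of smaller changes was not simulated. Alternatives were DESeq2 1.42.0, DESeq-type size factors, no filter, at least 10 counts in every sample, the replicate number as a block, a fit of only the groups compared, each liver left out, and both livers with high Saa1 left out. Replicates of a group differed by more than counting error, with a chi-square of 7.30 or more over its degrees of freedom, and each was used as 1 sample.

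Gene positions and exon lengths are from GENCODE M21 (GRCm38, the build of mm10) and flanks from RefSeq (GRCm38.p6). The 8 genes and all gene lists were chosen with earlier results of these data known. All 8 genes were named whatever their result, with the 3 genes most alike to each over 12 livers, and, per list and contrast, at most 3 genes that passed, by adjusted p; some of these are not reported here. Lists of acute-phase, glucocorticoid-induced, hepatocyte product, other C/EBP and other liver-enriched transcription factor genes, and of cell type markers, were used. Saa1, Cish, Socs2 and Bcl6 were set beside members after values had been seen.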

Additional observations from a re-analysis of the deposited data

How the results depend on the processing

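The falls of Foxa3 from day to night in both genotypes and of Cebpa in wild-type passed the test in every alternative. With DESeq2, 1 of 8 members passed for genotype at ZT8 (Cebpd, adjusted p = 0.0320), and leaving out single livers gave 0 to 1 members there, 0 to 1 in the interaction, 2 to 4 for time in wild-type and 1 to 2 for time in knockouts. Cebpb passed for time in wild-type with DESeq2 (adjusted p = 0.0187) and without the first wild-type ZT8 liver (edgeR adjusted p = 0.0103), and in knockouts with only the samples compared (edgeR adjusted p = 0.0339). Cebpd lost its call for time in wild-type with only the samples compared (edgeR adjusted p = 0.0589), without wild-type liver 2 or 3 at ZT8 (0.0602 and 0.0874) and without liver 1 or 2 at ZT20 (0.0748 and 0.0670). Same-numbered replicates did not deviate together over all genes (mean r = -0.014, against 0.0071 for other numbers). A shared litter or day that acts on few genes would not show in this mean. With the replicate number as a block, 1 member passed for genotype at ZT8 (Cebpd, -0.79, edgeR adjusted p = 0.0478) and Cebpb passed for time in wild-type (edgeR adjusted p = 0.0291), and no other member call changed.

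Differences that were not called changed sign when single livers were left out. For genotype at ZT8 the log2 fold change ran from -0.39 to 0.75 for Onecut1 and from -0.21 to 0.29 for Prox1, and at ZT20 from -0.15 to 0.19 for Foxa3, -0.29 to 0.093 for Cebpd, -0.048 to 0.33 for Foxa1 and -0.47 to 0.14 for Onecut1. The interaction ran from -0.094 to 0.24 for Foxa3, -0.23 to 0.91 for Onecut1 and -0.30 to 0.18 for Foxa2. Time in wild-type ran from -0.061 to 0.20 for Foxa2 and -0.16 to 0.037 for Prox1, and in knockouts from -0.14 to 0.23 for Foxa1 and -0.065 to 0.41 for Foxa2. Without both livers with high Saa1, which leaves 1 wild-type mouse at ZT8 that is assumed to vary like the others, genotype at ZT8 gave 0.11 for Cebpb, 0.18 for Foxa1 and -0.12 for Prox1. The interaction then gave 0.40 for Cebpb, 0.058 for Cebpd, 0.047 for Foxa1 and 0.33 for Foxa2, and time in wild-type gave 0.087 for Foxa1 and 1.73 for Onecut1. The cause was not tested. Over all genes, 1224 were called for genotype at ZT8, 768 with only the samples compared, 542 to 1811 with 1 liver left out and 346 without both livers. At ZT20 the 526 calls became 239 to 656, those of the interaction (852) 493 to 1260, of time in wild-type (4018) 2861 to 4197 and 1795 without both livers, and of time in knockouts (2530) 1567 to 2845. The level of Onecut1 was 11.9 CPM per kb over exon bases shared with no other gene, an alternative chosen after seeing the data, as was leaving out both livers for the gene lists. With 3 mice per group, effects of genotype inside the confidence intervals given remain compatible with the data. The smallest effect that could be detected was not computed.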

Other observations

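Markers of cells other than hepatocytes were measured in the same livers. Cholangiocyte markers, among which Sox9 marks the bile duct lineage in which Onecut1 also acts, summed to 68.4 to 126 CPM over the 12 livers. With edgeR, 1 of the 7 tested passed for genotype at ZT8, against 8.45% of all genes. Whether that call held without the wild-type livers with high Saa1 was not examined. Endothelial cell markers summed to 302 to 368 CPM, and 0 of 8 passed for genotype at ZT8 with edgeR, 1 had an unadjusted p under 0.05 and DESeq2 called 0. Stellate cell markers summed to 248 to 342 CPM, and 0 of 8 passed at ZT8 with edgeR, 2 had an unadjusted p under 0.05 and DESeq2 called 1. Kupffer cell and macrophage markers summed to 303 to 556 CPM, and 0 of 8 passed at ZT8 with edgeR, 5 had an unadjusted p under 0.05 and DESeq2 called 3. Lymphocyte markers summed to 10.6 to 17.3 CPM and erythroid markers to 112 to 288 CPM, and none of the 4 and 5 tested had an unadjusted p under 0.05 in any contrast with edgeR or was called by DESeq2. Of the 10 hepatocyte markers, 0 passed for genotype at ZT8 with edgeR, 5 had an unadjusted p under 0.05 and DESeq2 called 5. For time 5 of them passed in wild-type and 2 in knockouts with edgeR, against 27.7% and 17.5% of all genes. The 5 in wild-type were Alb, Ttr, Ahsg, Cps1 and Tat, with log2 fold changes of 0.82, 0.52, -0.40, 0.83 and 0.53. Without the 2 livers with high Saa1, which leaves 1 wild-type liver at ZT8, these were 0.47, 0.15, -0.27, 0.74 and 0.61. The part of cell number in the values of the 8 transcription factors was not tested.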
